A study of Mus musculus with 4 samples.

Results

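Cmip, Frmd4a, Prkce, Ablim1, App, Asap1, Bfsp1, Cd82 and Csrp1 are 9 of 21627 mouse protein-coding genes on the autosomes and X. Around each of them, several stretches of chromatin were listed as open only in libraries from mice with knockdown of the transcription factor Zeb1. Each gene was picked because 3 or more merged regions in or near it were held by both Zeb1-CKO libraries and by neither control library. Such regions are called knockdown-only here. All peaks that overlapped the gene body or the 10 kb on each side, on mm10, were then counted in each library. Because these counts chose the genes, they are given as a description and without a test. In all, 34 genes (0.157% of those counted) had 3 or more knockdown-only regions, so the 9 are a selection among them.

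Accessibility was measured by ATAC-seq, in which a transposase inserts sequencing adapters into open DNA, in endothelial cells sorted by FACS from retina of C57BL/6 mice. There were 2 libraries from mice with the genotype Zeb1 knockdown, titled Zeb1-CKO, and 2 from control mice, all titled P16 and each made from 2000 cells. The driver of the knockdown, the control alleles and the number of animals behind a library are not given in the sources used here, so the spread between libraries of a group may be technical. With 2 libraries against 2, a two-sided exact permutation test cannot give a p below 0.333.

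Zeb1 is a zinc-finger repressor that binds E2-box sequences and is best known for silencing epithelial genes. Accessible chromatin at the start of a gene usually marks its promoter, while accessible stretches inside long introns are often enhancers, and a gene can be served by several of them. The 9 genes do not form a pathway. Several act where the actin skeleton, cell adhesion and membrane traffic meet, which are processes that endothelial cells use when they move and form junctions.

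The Zeb1-CKO lists held 13689 and 19886 peaks (replicates 1 and 2), and the control lists 7608 and 13672 peaks. The lists do not give read depth, so where no peak is listed the site may be closed or may lack reads. All 10 endothelial marker genes examined had a peak in both Zeb1-CKO libraries, against 9 and 10 of them in the control libraries. Markers of rod and cone photoreceptors moved with the replicate number: 4 and 10 of 10 had a peak in the Zeb1-CKO libraries, against 3 and 10 in the control libraries. Of 6 pericyte markers, 1 and 2 had a peak in the Zeb1-CKO libraries and 0 in each control library. The part of other cells in the regions described here was not tested.

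Around the 9 genes, the Zeb1-CKO libraries held 45 and 67 peaks, and the control libraries 5 and 26. Over the 2437 kb of the 9 windows this came to 1.85 and 2.75 peaks per 100 kb in the Zeb1-CKO libraries, against 0.205 and 1.07 in the control libraries. Both Zeb1-CKO libraries had more peaks than either control library around each of the 9 genes, as around 2038 of all 21627 genes (9.42%). The choice of genes brings this about, since all 34 genes with 3 or more knockdown-only regions had it, and nothing is read from it. The same density summed over the windows of all protein-coding genes was 1.20 and 1.61 in the Zeb1-CKO libraries and 0.631 and 1.20 in the control libraries. Control replicate 1, the shortest list, had a peak around 5 of the 9 genes and none around Cmip, Prkce, Asap1 and Cd82.

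**Figure D1:**
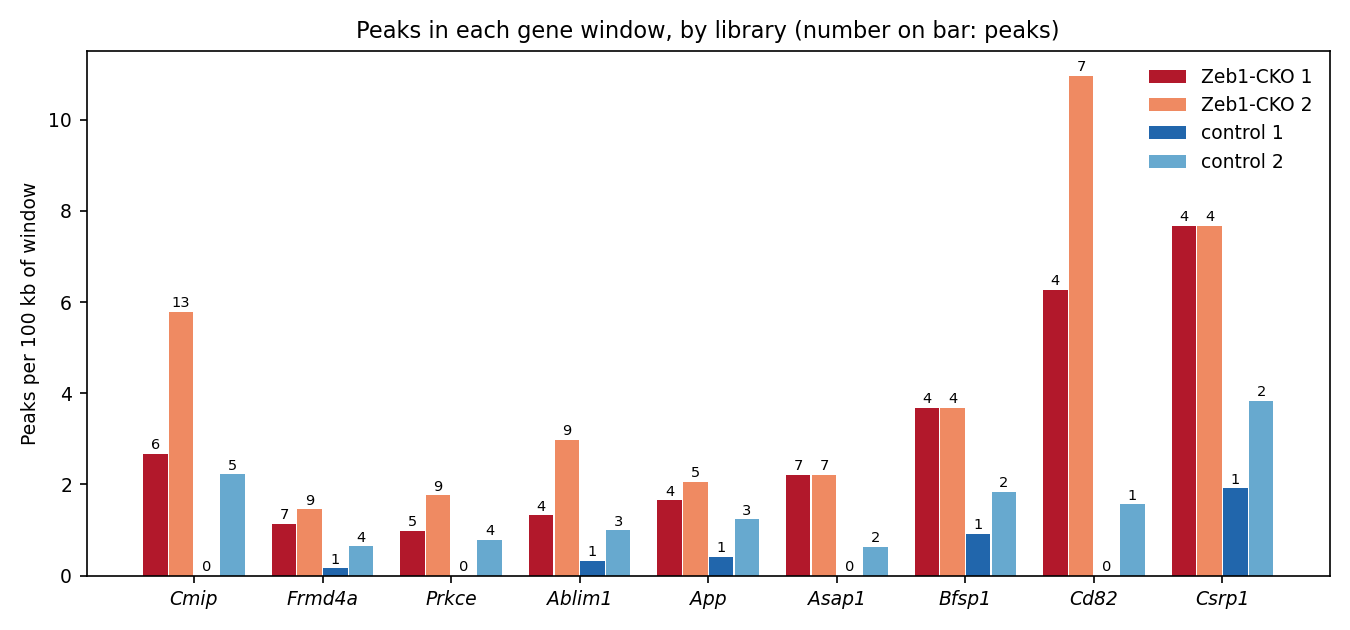
Peaks per 100 kb of window (gene body plus 10 kb on each side) for the 9 genes, with a bar for each library and the number of peaks printed on the bar. Both Zeb1-CKO bars stand above both control bars for each gene, an order found for 9.42% of all genes and for all 34 with 3 or more knockdown-only regions, the count that chose the 9. The highest bar is 11.0 peaks per 100 kb at Cd82 in Zeb1-CKO replicate 2.

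Merged across libraries, the peaks formed 81 regions around the 9 genes, of which 31 (38.3%) were knockdown-only. Over the genome 2555 of 25263 regions, 10.1%, were knockdown-only, but the genes were picked on this count and nothing is read from the contrast. None of the 81 was control-only, a class that made up 0.158% of all regions. Regions held by all 4 libraries numbered 2 of 81 (2.47%), against 20.3% of all regions. Another 7 regions (8.64%, against 16.6% of all regions) were missing only from control replicate 1. A further 9 (11.1%, against 7.66%) were held by the replicate 2 library of each group alone. Zeb1-CKO replicate 2 held 18 by itself (22.2%), near its share of all regions (22.6%). In total 40 of the 81 regions were held by both Zeb1-CKO libraries and 29 by at least 1 control library. The choice of genes shapes these totals, and nothing is read from them.

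The 31 knockdown-only regions lay within the genes. All 31 overlapped the gene body or lay within 1 kb of a gene end, and 0 lay in the flanks beyond. The flanks were a small part of most windows (median gene 223 kb, median window 243 kb), so nothing is read from this position. Their nearest control peak was between 2130 and 114927 bp away (median 14647 bp), and for 20 of them it was more than 10 kb away. Only 3 of the 31 (9.68%) lay within 1 kb of an end of a protein-coding gene, against 29.9% of all knockdown-only regions. The median over all genes was 17.3 kb, and long genes have fewer ends per kb, so nothing is read from that contrast. The gene table used here gives gene ends and no exons, so exonic and intronic positions were not separated. Of the 31 regions, 6 also overlapped another gene of the table, in each case a long non-coding RNA gene.

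**Figure D2:**
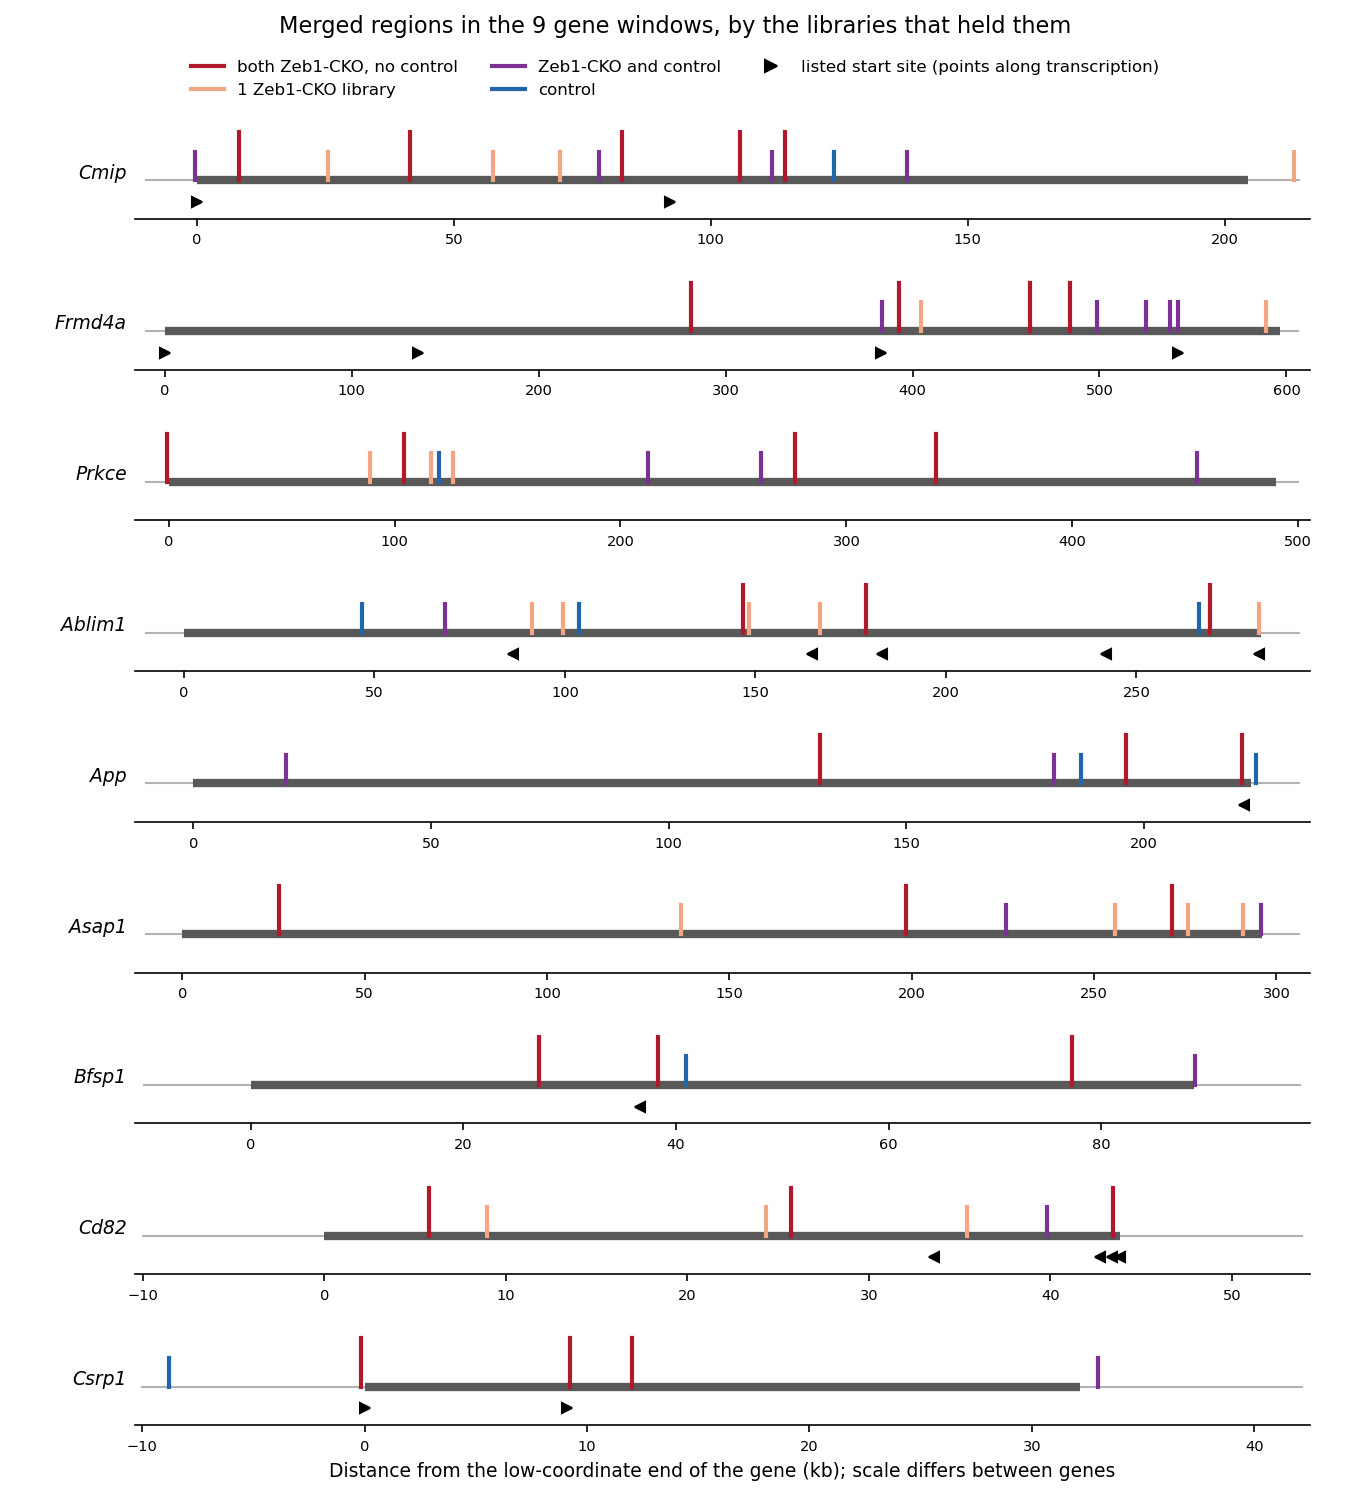
Merged regions in the 9 gene windows, drawn by distance (kb) from the low-coordinate end of each gene, with the gene body as a thick line and listed start sites as triangles. Knockdown-only regions (tall red bars) are spread along the gene bodies, 5 in Cmip, 4 each in Frmd4a and Prkce, and 3 in each of the other genes.

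Peaks at start sites were examined because they bear on known promoters. RefSeq promoter windows on GRCm38.p6, from 250 bases before a start site to 50 after it, were found for 7 of the 9 genes and gave 19 windows, since some genes have several start sites. Prkce and Asap1 had no entry. A merged region overlapped 7 of the 19 windows. It was knockdown-only at 4 of these windows, those of App, Cd82 and both start sites of Csrp1. The other 12 windows had no region, as had 21666 of the 32619 promoter windows of all genes. Of those 32619 windows, 863 were overlapped only by a knockdown-only region. The 9 genes were picked on knockdown-only regions, so nothing is read from these counts. The 7 windows are printed with the libraries that held the merged region, 5′ to 3′ along the gene, in lower case, with the E2-box letters CACCTG, or CAGGTG on the other strand, in capitals. These spellings cannot overlap each other.
App, chr16:85173658-85173957, minus strand, knockdown-only: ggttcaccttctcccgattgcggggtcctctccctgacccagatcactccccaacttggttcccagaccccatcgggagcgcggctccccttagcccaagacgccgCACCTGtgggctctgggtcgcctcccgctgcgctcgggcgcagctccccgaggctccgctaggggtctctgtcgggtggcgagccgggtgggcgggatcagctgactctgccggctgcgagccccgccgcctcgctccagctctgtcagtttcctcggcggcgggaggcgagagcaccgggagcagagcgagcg
Cd82, the second start, chr2:93462453-93462752, minus strand, knockdown-only: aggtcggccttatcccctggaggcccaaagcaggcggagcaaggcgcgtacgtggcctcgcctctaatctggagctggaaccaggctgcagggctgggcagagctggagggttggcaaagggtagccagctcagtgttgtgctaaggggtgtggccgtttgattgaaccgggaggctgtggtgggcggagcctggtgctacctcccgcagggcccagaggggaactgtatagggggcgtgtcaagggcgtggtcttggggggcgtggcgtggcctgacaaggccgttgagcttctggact
Csrp1 upstream start, chr1:135719813-135720112, plus strand, knockdown-only: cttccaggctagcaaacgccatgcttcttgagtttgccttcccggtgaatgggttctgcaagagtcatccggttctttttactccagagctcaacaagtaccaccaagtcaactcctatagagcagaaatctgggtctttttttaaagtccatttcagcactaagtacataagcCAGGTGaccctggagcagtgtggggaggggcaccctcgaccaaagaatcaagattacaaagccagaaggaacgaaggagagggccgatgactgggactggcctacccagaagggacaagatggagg
Csrp1 downstream start, chr1:135728917-135729216, plus strand, knockdown-only: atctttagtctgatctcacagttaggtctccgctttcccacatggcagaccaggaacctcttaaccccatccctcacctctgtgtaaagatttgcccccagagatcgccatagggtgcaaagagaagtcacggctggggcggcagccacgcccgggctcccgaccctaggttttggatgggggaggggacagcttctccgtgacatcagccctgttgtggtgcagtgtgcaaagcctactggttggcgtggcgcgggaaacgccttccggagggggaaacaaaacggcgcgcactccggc
Cmip, chr8:117256769-117257068, plus strand, both Zeb1-CKO libraries and control replicate 2: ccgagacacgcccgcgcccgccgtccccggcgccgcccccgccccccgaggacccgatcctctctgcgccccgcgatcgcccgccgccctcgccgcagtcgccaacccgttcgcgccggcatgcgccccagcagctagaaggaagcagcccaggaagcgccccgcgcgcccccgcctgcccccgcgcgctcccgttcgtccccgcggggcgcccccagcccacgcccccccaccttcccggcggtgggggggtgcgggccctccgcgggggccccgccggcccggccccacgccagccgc
Frmd4a, the fourth start, chr2:4559504-4559803, plus strand, Zeb1-CKO replicate 1 and control replicate 2: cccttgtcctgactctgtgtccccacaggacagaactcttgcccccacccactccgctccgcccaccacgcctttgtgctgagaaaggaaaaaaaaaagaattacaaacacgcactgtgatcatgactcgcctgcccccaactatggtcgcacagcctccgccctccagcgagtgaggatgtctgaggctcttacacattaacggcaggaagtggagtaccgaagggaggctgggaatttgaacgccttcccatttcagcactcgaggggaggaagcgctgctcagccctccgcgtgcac
Ablim1 outermost start, chr19:57314870-57315169, minus strand, Zeb1-CKO replicate 2 alone: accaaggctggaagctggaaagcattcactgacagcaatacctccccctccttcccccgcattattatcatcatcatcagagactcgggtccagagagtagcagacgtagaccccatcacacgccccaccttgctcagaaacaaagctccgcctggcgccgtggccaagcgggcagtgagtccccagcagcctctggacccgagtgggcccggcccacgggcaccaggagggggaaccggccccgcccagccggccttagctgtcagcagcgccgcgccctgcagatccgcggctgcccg

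Among the 4 knockdown-only windows, those of App and of the upstream Csrp1 start held 1 E2-box each, and the other 2 held none. In Csrp1 the box, at bases 175 to 180 of the window (chr1:135719987-135719992), lay inside the knockdown-only region, in the part that the peak of Zeb1-CKO replicate 2 alone covered. In App it was at bases 107 to 112 and lay 27 bp outside the region. The windows with a region that a control library also held (Cmip, Frmd4a) and the Ablim1 window had no box. Over all 19 windows 6 held a box (31.6%), against 20.3% of 32619 promoter windows on the same chromosomes. Promoter windows overlapped only by a knockdown-only region held one in 28.4% of 863 cases. The share was 21.8% of 21666 windows with no region, and 12.6% of 4950 overlapped only by a region of all 4 libraries. GC content in the 7 printed windows ran between 50.3% at the upstream Csrp1 start and 83.7% at Cmip, with a median of 53% over all promoter windows. A match shows only that the letters occur there.

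Of the actin-linked genes, Ablim1 codes for a LIM-domain protein that binds actin filaments through a villin-type headpiece. It lies on the minus strand at chr19:57032733-57315344. Its window held 4 and 9 peaks in the Zeb1-CKO libraries (1.32 and 2.97 per 100 kb), against 1 and 3 in the control libraries (0.330 and 0.991). The groups did not overlap, but Zeb1-CKO replicate 1 had only 1 peak more than control replicate 2. Its knockdown-only regions were chr19:57179221-57179555, chr19:57211583-57212128 and chr19:57301968-57302361, all inside the gene body. The last, 12558 bp into the gene from the outermost start site, was the strongest of the 3, at 51.9% and 11.8% from the top of the Zeb1-CKO lists by −log10 p. Another 5 of the 12 Ablim1 regions were held by Zeb1-CKO replicate 2 alone, among them the one on the outermost start site printed above.

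Csrp1 codes for a protein with paired LIM domains that binds zyxin and alpha-actinin on actin bundles and is abundant in smooth muscle. It is the shortest of the 9 genes (32.2 kb, chr1:135720063-135752229). There were 4 peaks in each Zeb1-CKO library (7.67 per 100 kb) and 1 and 2 in the control libraries (1.92 and 3.83 per 100 kb). Its 3 knockdown-only regions began within 11819 bp of the first base of the gene or just before it. They were chr1:135719538-135720296 over the upstream start, chr1:135729041-135729554 over the downstream start, and chr1:135731882-135732273, 2715 bp beyond the downstream start. The Csrp1 window held no other Zeb1-CKO peak except in a region shared by all 4 libraries, chr1:135752797-135753289, 568 bp from the far end of the gene. At the downstream start the peaks of both Zeb1-CKO libraries covered the start site itself. At the upstream start the peak of Zeb1-CKO replicate 2 covered it, while that of Zeb1-CKO replicate 1 (chr1:135720087-135720286) began 24 bp beyond it.

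Asap1 and Frmd4a are linked to Arf GTPases, the switches of vesicle traffic and membrane ruffling, Asap1 directly and Frmd4a through its partners. Asap1 is an Arf GTPase-activating protein of focal adhesions and podosomes (chr15:64086840-64382941). It had 7 peaks in each Zeb1-CKO library (2.21 per 100 kb), against 0 and 2 in the control libraries (0 and 0.633). Together with Cmip, Prkce and Cd82 it was a gene with no peak in control replicate 1. Its knockdown-only regions were chr15:64113345-64113596, chr15:64285125-64285560 and chr15:64358144-64358506. The first had the most distant control peak of all 31, at 114927 bp. The region over the high-coordinate end of Asap1, chr15:64382315-64382961, was held by control replicate 2 as well as by both Zeb1-CKO libraries. In control replicate 2 that peak ranked at 37.4% from the top, while in Zeb1-CKO replicate 1 it ranked at 99.1%, near the end of the list.

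Frmd4a codes for a FERM-domain scaffold that links the polarity protein Par3 to cytohesins, activators of Arf6, in epithelial cells. It is the longest of the 9 genes (596 kb, chr2:4017650-4614043). Its window held 7 and 9 peaks in the Zeb1-CKO libraries (1.14 and 1.46 per 100 kb), and 1 and 4 in the control libraries (0.162 and 0.649). The 11 regions all began 281345 bp or more from its first base, and the first 3 of its 4 listed start sites had no region. Peaks of both Zeb1-CKO libraries and of control replicate 2 lay 302 to 370 bp beyond the third. Knockdown-only regions were chr2:4298995-4299400, chr2:4409848-4410490, chr2:4480197-4480534 and chr2:4501533-4501879. The third of these was the best-ranked of all 31 in Zeb1-CKO replicate 2, at 11.2% from the top, and stood at 33.7% in Zeb1-CKO replicate 1. It and the fourth also overlapped the long non-coding RNA gene Gm39751. The region at the fourth start site, printed above, was held by Zeb1-CKO replicate 1 and control replicate 2, so it did not follow genotype.

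The signalling genes were Cmip and Prkce. Cmip, the c-Maf inducing protein, is an adaptor with a pleckstrin homology domain and leucine-rich repeats, first described in T cells. It lies at chr8:117257019-117461506 and had the most knockdown-only regions of any gene, 5. Its window held 6 and 13 peaks in the Zeb1-CKO libraries (2.67 and 5.79 per 100 kb), against 0 and 5 in the control libraries (0 and 2.23). Here the groups were separated by a single peak, between Zeb1-CKO replicate 1 and control replicate 2, and replicate 2 was the richer library of both groups.

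The Cmip knockdown-only regions were chr8:117265064-117265378, chr8:117298268-117298574, chr8:117339636-117339897, chr8:117362356-117362916 and chr8:117371281-117371752. They began 8045 to 114262 bp from the first base of the gene, and the last 89754 bp toward the far end held none. The control peak nearest to the last of them lay 2130 bp away and belonged to a region held by Zeb1-CKO replicate 2 and control replicate 2. The region at the first start site was held by both Zeb1-CKO libraries and control replicate 2, though only the peak of Zeb1-CKO replicate 2 reached the promoter window, while those of Zeb1-CKO replicate 1 and control replicate 2 ended 277 bp and 266 bp before the start site. Its peaks ranked at 73.8% and 10.2% from the top in the Zeb1-CKO lists and at 70.6% in control replicate 2.

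Prkce codes for protein kinase C epsilon, a kinase that responds to diacylglycerol and not to calcium and is linked to adhesion and survival signalling. Its window (gene at chr17:86167785-86657919) held 5 and 9 peaks in the Zeb1-CKO libraries (0.980 and 1.76 per 100 kb), and 0 and 4 in the control libraries (0 and 0.784). A single peak again separated Zeb1-CKO replicate 1 from control replicate 2. The widest of the 31 knockdown-only regions, 1292 bp at chr17:86166578-86167869, covered the low-coordinate end of Prkce and overlapped the long non-coding RNA gene Gm5817. The others were chr17:86271740-86272086, chr17:86444858-86445141 at an end of the non-coding gene Gm30284, and the 1036 bp region chr17:86506908-86507943. No region of the Prkce window was held by 3 or more libraries, and 3 were held by the replicate 2 library of each group alone.

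App and Cd82 code for membrane proteins. App is the amyloid precursor protein, a single-pass protein made by many cell types including endothelium and cleaved by secretases. It lies on the minus strand at chr16:84952666-85175255, with 4 and 5 peaks in the Zeb1-CKO libraries (1.65 and 2.06 per 100 kb), against 1 and 3 in the control libraries (0.412 and 1.24). Zeb1-CKO replicate 1 and control replicate 2 were again 1 peak apart. The knockdown-only region chr16:85172833-85173819, 987 bp wide, covered the listed start site. A control replicate 1 peak lay 2320 bp from it, upstream of the gene. The other knockdown-only regions were chr16:85084294-85084609 and chr16:85148719-85149073. The second of these was the best-ranked of all 31 in Zeb1-CKO replicate 1, at 26.6% from the top, but stood at 76.7% in Zeb1-CKO replicate 2.

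Cd82 is a tetraspanin that associates with integrins and is known as a suppressor of metastasis. The gene, on the minus strand at chr2:93419102-93462950, had 4 and 7 peaks in the Zeb1-CKO libraries (6.26 and 11.0 per 100 kb), against 0 and 1 in the control libraries (0 and 1.57). Its single control peak belonged to chr2:93458670-93459188, which both Zeb1-CKO libraries also held. Knockdown-only regions were chr2:93424664-93425036, chr2:93444435-93445239 and chr2:93462384-93462766. The last covered the second of 4 listed start sites and overlapped the non-coding gene Gm10804. Its peaks ranked at 90.8% and 55.2% from the top, so that it was among the weaker peaks of Zeb1-CKO replicate 1.

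Bfsp1 codes for filensin, which forms the beaded filaments of the lens with its partner Bfsp2. The gene (chr2:143826528-143915219, minus strand) had 4 peaks in each Zeb1-CKO library (3.68 per 100 kb), and 1 and 2 in the control libraries (0.920 and 1.84). Its knockdown-only regions were chr2:143853448-143853841, chr2:143864602-143864990, which lies 1429 bp upstream of the listed start site, and chr2:143903487-143903989. The first stood at 34.1% and 25.3% from the top of the Zeb1-CKO lists. A region held by all 4 libraries, chr2:143914739-143915854, lay over the high-coordinate end of the Bfsp1 model and also over the start of the neighbouring gene Dstn, which codes for the actin-severing protein destrin. No start site of Bfsp1 was listed near it, and the listed start site itself had no region.

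Most of these peaks were of middling to low strength within their own lists. The 31 knockdown-only regions ranked between 26.6% and 97.9% from the top in Zeb1-CKO replicate 1 (median 69.1%) and between 11.2% and 94.3% in Zeb1-CKO replicate 2 (median 55.2%). The medians over all 2555 knockdown-only regions were 69.2% and 56.6%. Only 2 of the 31 (6.45%), chr2:4480197-4480534 in Frmd4a and chr2:143853448-143853841 in Bfsp1, ranked within the top 50% of both lists, against 16.8% of all knockdown-only regions. In 25 of the 31 the rank was better in Zeb1-CKO replicate 2. The regions were 252 to 1292 bp wide (median 392 bp, against 455 bp for all knockdown-only regions), and 6 of them reached 600 bp.

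**Figure D3:**
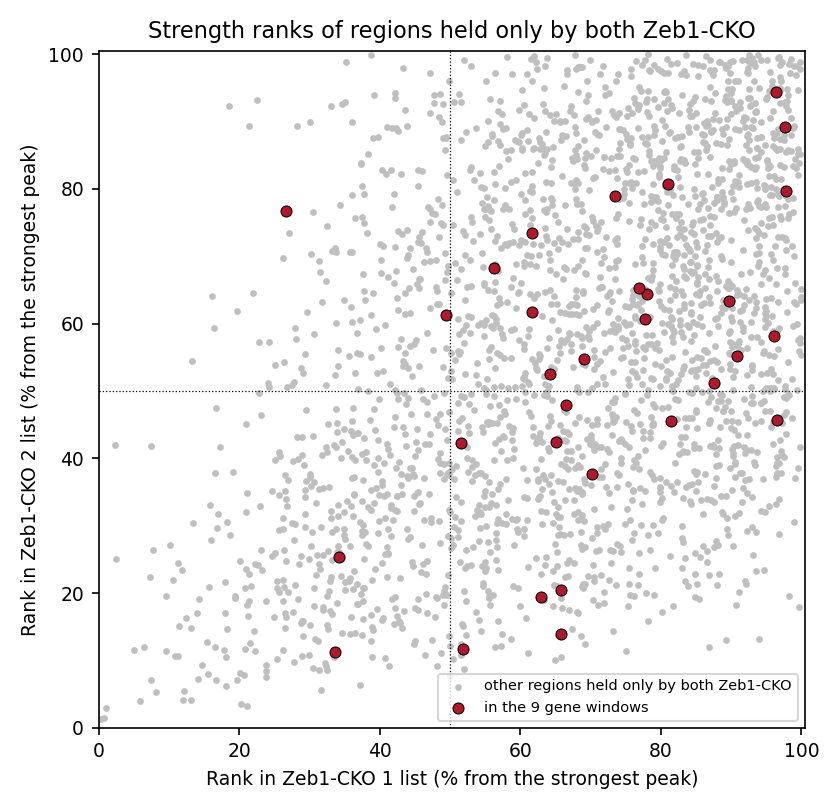
Rank of each knockdown-only region in the Zeb1-CKO replicate 1 list (x axis) and the Zeb1-CKO replicate 2 list (y axis), in percent from the strongest peak by −log10 p, with dotted lines at 50%. The 31 regions of the 9 genes (red) lie mostly to the right of the dotted line, and 2 lie in the lower left corner with both ranks under 50%.

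The count of such regions changed when fewer peaks were kept. With only peaks of −log10 q of at least 3, 16 knockdown-only regions were counted around the 9 genes, 14 of them among the 31, and Prkce (3) and Asap1 (4) were the genes that still reached 3. App then had 0. When each list was limited to its 7608 strongest peaks, 4 knockdown-only regions were counted and no gene of the 9 reached 3. Of these 4, the 3 already in the set of 31 were chr2:4480197-4480534 in Frmd4a, chr19:57301968-57302361 in Ablim1 and chr2:143853448-143853841 in Bfsp1.

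**Figure D4:**
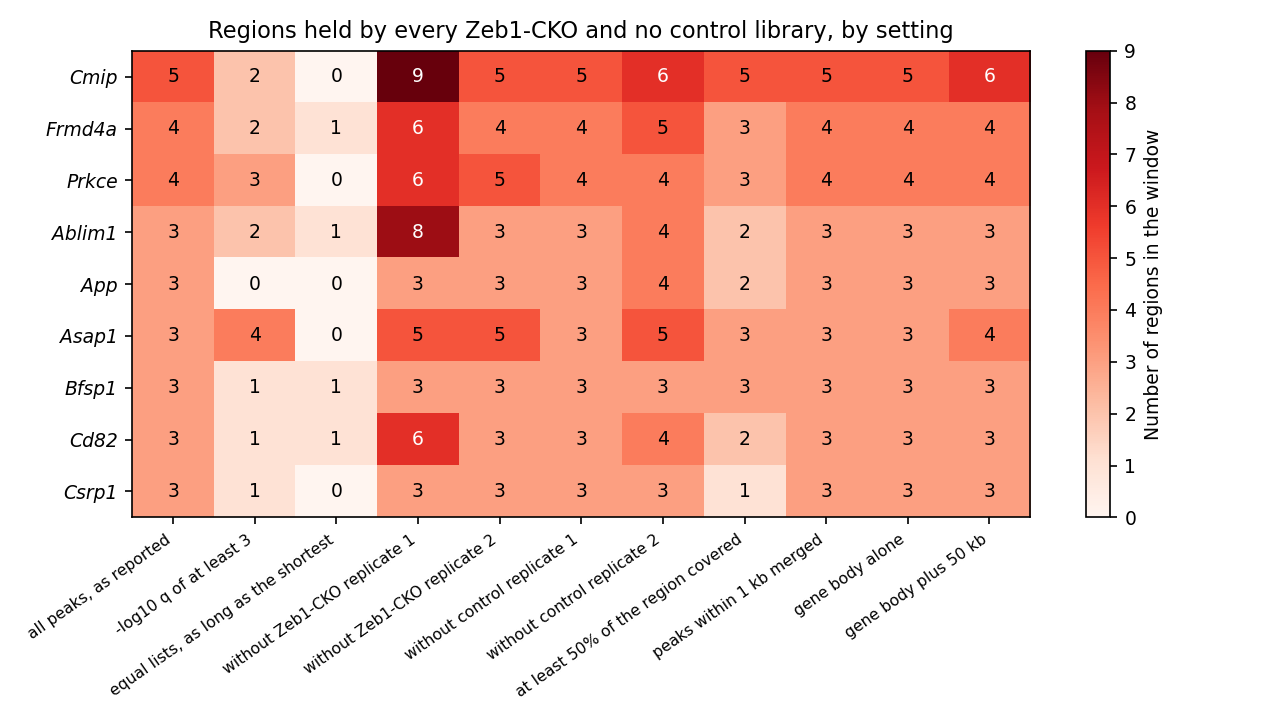
Number of regions held by every Zeb1-CKO library and no control library in each gene window (rows) under each setting (columns), with the colour scale from 0 to 9 regions. Counts fall to 0 or 1 when each list is limited to the length of the shortest. Leaving out a library loosens the rule that picked the genes, so those counts cannot fall.

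Length differed between these genes and the rest. The 9 gene bodies had a median length of 223 kb, against 17.3 kb over all genes, and a longer window can hold more regions. Median gene length was 16.3 kb for the 19210 genes with no knockdown-only region, 26.9 kb for the 2160 with 1, 59.2 kb for the 223 with 2 and 149 kb for the 34 with 3 or more. Per 100 kb the 9 genes had a median of 1.24 knockdown-only regions, between 0.649 at Frmd4a and 5.75 at Csrp1. That median was lower than for genes with 1 such region (2.13), with 2 (2.53) or with 3 or more (1.99). Over all genes it was 0. Among the 34 genes with 3 or more, Csrp1 was in place 5 by this density, Cd82 in place 8, Bfsp1 in place 12 and Cmip in place 14. The other 5, App, Ablim1, Asap1, Prkce and Frmd4a, stood in places 23 to 32.

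**Figure D5:**
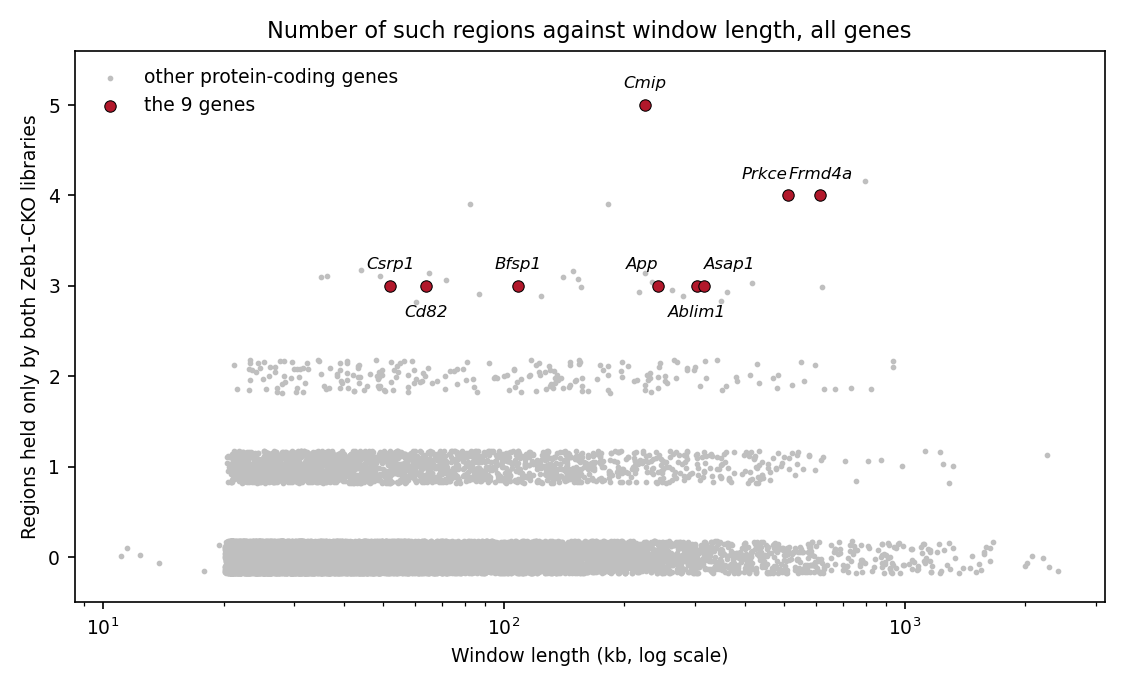
Knockdown-only regions per gene (y axis, spread vertically for genes other than the 9) against window length in kb (log scale) for 21627 protein-coding genes. The 9 genes lie at 3 to 5 regions with windows of 52.2 to 616 kb, and Cmip stands alone at 5.

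Of the 25 other genes with 3 or more knockdown-only regions, Itgb3 and Arhgap26 were among those with 4. Itgb3, the integrin beta 3 chain, had 4 and 6 peaks in the Zeb1-CKO libraries against 0 and 1 in the control libraries. Cdh1 (E-cadherin), Eps8l2, Gfm1, Myt1l and Rps6ka1 had 3 and no control peak, a state found in 6 of these 25 genes and in 0 of the 9. Just under the threshold, 223 genes had 2 such regions. Among them Snapc2, 2610528J11Rik and Arc each had 2 peaks in each Zeb1-CKO library, 0 in each control library and a window of 23.1 to 23.5 kb. Just inside it, Ablim1, App, Asap1, Bfsp1, Cd82 and Csrp1 had 3.

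A list of 46 genes related to the 9, by family or by known partnership, was examined for the same pattern. At least 1 knockdown-only region lay in the windows of 13 of them (28.3%), against 11.2% of all genes, and a control-only region in 0. The median window of the list was 81.5 kb, against 37.3 kb for all genes. By the same count, 6 of the 10 endothelial markers (60%, median window 64.6 kb) had at least 1, so the trait is not particular to the relatives. Of the 10 photoreceptor markers 1 had it, and 0 of the glial, pericyte and leukocyte markers. Tspan18, a tetraspanin like Cd82, had 3 such regions, with 5 and 8 peaks in the Zeb1-CKO libraries and 0 and 4 in the control libraries. Bace2, a protease that can cleave App, had 2, with 2 and 3 peaks in the Zeb1-CKO libraries and 0 in each control library. Tspan14 also had 2, with 5 and 6 peaks in the Zeb1-CKO libraries and 1 and 4 in the control libraries. Agap1, Apbb2, Git1 and Ncstn had 1 each, as did the protein kinase C genes Prkca, Prkcb, Prkch, Prkci and Prkcz, which were named after their values were seen. The closest relatives of Frmd4a and Bfsp1, Frmd4b and Bfsp2, had none.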

How the data were processed

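Each of the 4 libraries has its own deposited list of broad peaks on mm10. MACS2 2.1.1, bedtools 2.26.0, Bowtie2 2.3.2, Trimmomatic 0.36, SAMtools 1.3 and Picard 2.9.2 are named, per the submitters' processing notes, while their settings and any shift for the transposase offset are not given in the sources used here. Per peak, the authors deposited a ratio (fold enrichment against background in that library) with its −log10 p and −log10 q, and every list ends at a q of 0.1. The deposited score is 10 times the −log10 q, cut to a whole number and limited to 1000, except for 4 peaks of Zeb1-CKO replicate 2. These are the authors' values and served here to order or filter the peaks of a single list.

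Overlapping or touching peaks of the 4 lists were merged (19 autosomes and X), and a library held a region if its peaks overlapped it by 1 bp. Gene ends came from RefSeq on GRCm38.p6, which has the chromosomes of mm10, and windows added 10 kb to each side. The members and gene lists were chosen with earlier results of these data known. Named genes were the 9, relatives with a knockdown-only region (up to 8), other genes with 3 or more (up to 8, by number and then fewest control peaks) and 3 genes with 2. Some genes that this rule names are not reported here. No test was run, because the comparison had chosen the genes. Marker lists with no result above were Muller glia and astrocytes (3 and 4 of 6 genes with a peak in the Zeb1-CKO libraries, 3 and 2 in the control libraries) and leukocytes (1 and 1 of 5, and 2 and 1). Merging and counting were tested on simulated peaks. Python 3.11.15 with pandas 2.3.3 was used. The alternatives were lists of equal length, a stricter −log10 q (3 or more), each library left out, coverage of at least 50% of a region, merging within 1 kb, and windows of the gene body alone or with 50 kb.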

Additional observations from a re-analysis of the deposited data

How the results depend on the processing

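The 31 knockdown-only regions became 16 with a −log10 q of at least 3 and 4 with lists as long as the shortest. Leaving out a library loosens the rule that picked the genes, so the count around them cannot fall and says nothing about stability; it was 31 to 49, and the 49 came without Zeb1-CKO replicate 1, when a region held by Zeb1-CKO replicate 2 alone counts. Genes of the 9 with 3 or more such regions numbered 2 with a −log10 q of at least 3, 0 with equal lists and 5 when 50% of a region had to be covered. Over all genes the count of 34 became 18 with the stricter q, 4 with equal lists, 56 with 50% coverage and 179 with 50 kb flanks. It was 39 to 498 with a library left out: 498 without Zeb1-CKO replicate 1, 86 without Zeb1-CKO replicate 2, 39 without control replicate 1 and 294 without control replicate 2. Control-only regions around the 9 genes were 0 to 7 with a library left out, 7 without control replicate 1 and 2 without control replicate 2, since 1 control library then suffices. The stricter q and the equal lists drop control peaks too, so they can add knockdown-only regions as well as remove them. With all peaks, 2 of the 16 regions and 1 of the 4 were also held by control replicate 2. What drove the falls to 16 and 4 was not tested. Merging within 1 kb and the gene body alone gave 31 regions and 9 genes, and flanks of 50 kb gave 33 and 9. No paired analysis was possible because the results come from no test, and the labels do not say whether a shared replicate number marks a shared litter, day or batch. Read depth limits all of this: a peak missing from the shortest list, control replicate 1, may have had too few reads.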
